A study of Mus musculus with 12 samples.

Results

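The 8 genes described here belong to the Slc22 family of organic ion transporters, and they are Slc22a5, Slc22a7, Slc22a18, Slc22a23, Slc22a26, Slc22a27, Slc22a28 and Slc22a30. They were selected by name from the 57180 genes of the deposited count table, which lists 26 Slc22a genes in all. Of those 26 genes, 16 passed the filter on low counts (at least 5 reads, scaled to the median library, in at least 3 livers), and all 8 selected genes were among the 16. The livers came from 12 mice, with 3 females and 3 males of each of 2 genotypes called KO and Het, and a single mouse is written with its genotype, then F or M for its sex, then its number. Every mouse carried Csa-/- (a loss of the gene also named Ercc8, which acts in transcription-coupled nucleotide excision repair) and had been injected into the cerebral ventricles as a newborn with AAV9-CSA, a viral vector that carries human CSA under a ubiquitous promoter. The Het mice were Csa-/- Xpa+/- littermates matched for age and without signs of disease, and the KO mice were the CX mice of the study, taken when they reached the humane endpoint. The results section of the study gives CX mice as Csa-/- Xpa-/-, as does its account of the animals, whereas the series description and the RNA-seq methods write KO as Csa-/- Xpa+/+. The age of each mouse is not given in the sources used here. Genotype and terminal illness cannot be told apart in this design, and in a bulk liver sample fewer cells of a type and less RNA per cell cannot be told apart either.

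SLC22 proteins are membrane carriers of the plasma membrane that move small organic cations, zwitterions and anions, among them carnitine, drugs, bile acid conjugates and steroid sulfates. In hepatocytes they load the cell from the blood before metabolism or excretion. In mice the family includes a group of organic anion transporters on chromosome 19 that is found in rodents, and many transporter and cytochrome P450 genes of rodent liver differ between the sexes under the control of the pituitary pattern of growth hormone release, which acts through STAT5B and, among others, the repressors BCL6 and CUX2.

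Xpa, the gene that differs between the genotypes, was read first. Its level was between 3.10 and 6.34 CPM (counts per 1000000 after scaling) in the 6 Het livers and between 0.992 and 1.83 CPM in the 6 KO livers, and the ranges did not overlap. The total over all genes ranged from 30044781 to 43634046 estimated counts in a liver. The 9 hepatocyte defining genes found in the table summed to between 75900 and 154000 CPM in every liver, whereas 11 of 12 kidney proximal tubule genes (10 in KO females) had at most 3 counts in every liver of a group. Genes were called at an adjusted p under 0.05 (edgeR quasi-likelihood test, Benjamini-Hochberg over 19350 genes), and the labels give no batch for these livers.

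Slc22a26, Slc22a27, Slc22a28 and Slc22a30 lie next to one another on chromosome 19 of GRCm39, from 7758406 to 8382475 on the minus strand, together with Slc22a29. This stretch of 624.1 kb holds 14 annotated genes, and its 5 protein-coding genes are these 5 transporters. Slc22a28 and Slc22a30 were the closest pair, with coding sequences (1656 bases each) that were 98.8% identical. Slc22a27 was 97.3% identical to Slc22a29 and 91.6% to Slc22a30. Slc22a26 stood apart within the cluster, at 74.1% identity to Slc22a30. Stretches of 100 bases were compared only among the Slc22a genes and the annotated genes of this part of chromosome 19. Of those in the Slc22a28 transcript, 32.8% also occur in another of these genes, nearly all of them in Slc22a30. The shares were 6.27% for Slc22a27 and 0.592% for Slc22a26. Outside the cluster, Slc22a5 shared 13.2% of its stretches with Slc22a21, its neighbour on chromosome 11 (coding identity 89.4%), and Slc22a7, Slc22a18 and Slc22a23 shared 0.0%. The estimated counts of Slc22a7, Slc22a18, Slc22a23 and Slc22a26 were whole numbers (within 0.01) in 12 of 12 livers. Those of Slc22a5 and Slc22a27 were whole in 0 of 12 livers and those of Slc22a28 and Slc22a30 in 1 of 12. Such fractions happen where a read is divided among several genes.

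The start regions of 4 genes are shown because the genes moved in different directions. Each sequence runs from 250 bases before to 50 bases after the start of the canonical transcript (GRCm39, GENCODE M39, minus strand). In Slc22a26 at chr19:7780006-7780305 and Slc22a27 at chr19:7943343-7943642 the capitals mark matches to the motifs searched. In Slc22a28 at chr19:8109297-8109596 and Slc22a30 at chr19:8382426-8382725 the capitals mark the 6 positions of 300 at which the sequences differ.
Slc22a26: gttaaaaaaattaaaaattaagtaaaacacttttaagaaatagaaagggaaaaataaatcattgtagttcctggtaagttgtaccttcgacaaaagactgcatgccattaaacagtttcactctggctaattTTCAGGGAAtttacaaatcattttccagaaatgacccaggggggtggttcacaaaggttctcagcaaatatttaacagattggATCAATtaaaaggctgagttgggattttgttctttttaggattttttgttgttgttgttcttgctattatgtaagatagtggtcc
Slc22a27: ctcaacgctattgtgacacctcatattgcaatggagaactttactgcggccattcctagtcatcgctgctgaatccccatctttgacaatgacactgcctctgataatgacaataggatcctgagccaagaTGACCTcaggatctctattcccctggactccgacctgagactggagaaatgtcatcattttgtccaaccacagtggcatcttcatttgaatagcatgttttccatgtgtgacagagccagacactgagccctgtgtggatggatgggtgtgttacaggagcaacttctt
Slc22a28: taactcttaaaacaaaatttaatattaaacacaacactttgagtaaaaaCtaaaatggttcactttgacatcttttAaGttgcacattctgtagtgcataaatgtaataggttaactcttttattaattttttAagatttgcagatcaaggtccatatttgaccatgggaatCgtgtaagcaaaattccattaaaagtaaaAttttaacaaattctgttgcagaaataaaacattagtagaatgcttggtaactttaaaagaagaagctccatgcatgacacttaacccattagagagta
Slc22a30: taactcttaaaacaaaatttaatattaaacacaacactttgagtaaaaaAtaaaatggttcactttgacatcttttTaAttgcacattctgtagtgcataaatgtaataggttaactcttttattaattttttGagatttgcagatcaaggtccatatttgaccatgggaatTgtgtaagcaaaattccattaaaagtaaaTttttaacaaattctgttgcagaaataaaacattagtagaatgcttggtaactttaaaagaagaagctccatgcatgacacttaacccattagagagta
The motifs were searched on both strands as letters alone and are TTCNNNGAA (a STAT site), ATCGAT and ATTGAT (cores bound by CUX and HNF6 factors), CAAAGTC (HNF4), TTGCNNAA (C/EBP) and AGGTCA (a nuclear receptor repeat). The Slc22a26 sequence held 1 match to TTCNNNGAA at position -118 and 1 to ATTGAT at -35 on the opposite strand, with positions counted from the start. These motifs occur in 8.81% and 7.12% of the 21770 start regions of the same length. Slc22a27 held 1 match to AGGTCA at -119 on the opposite strand (15.1% of all start regions), and Slc22a28 and Slc22a30 each held 1 match to TTGCNNAA at -33 (10.7%). The start regions of Slc22a28 and Slc22a30 were 98.0% identical, and those of Slc22a26 and Slc22a27 were 42.6% identical. A match is a run of letters and not a measured site.

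Across both sexes, 6 of the 8 genes were called between KO and Het. By this average of the log2 fold changes of the sexes, Slc22a26 and Slc22a27 were higher in KO and Slc22a5, Slc22a23, Slc22a28 and Slc22a30 were lower. The same call was made for 22.4% of all genes tested, 12.2% higher and 10.2% lower. All 8 had an unadjusted p under 0.05. The value of Slc22a27 was positive in males and negative in females, and its mean CPM was lower in KO (10.3, n = 6) than in Het livers (14.5, n = 6). In females 2 of the 8 genes were called, both lower (Slc22a28 and Slc22a30), beside 11.0% of all genes (5.94% higher and 5.1% lower). In males 4 were called, with Slc22a26 and Slc22a27 higher and Slc22a5 and Slc22a28 lower, beside 7.45% of all genes (4.47% higher and 2.98% lower). The median log2 fold change over the 8 genes was -0.78 across both sexes, beside 0.02 over all genes tested. Slc22a7 and Slc22a18 were not called in any of these comparisons.

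**Figure D1:**
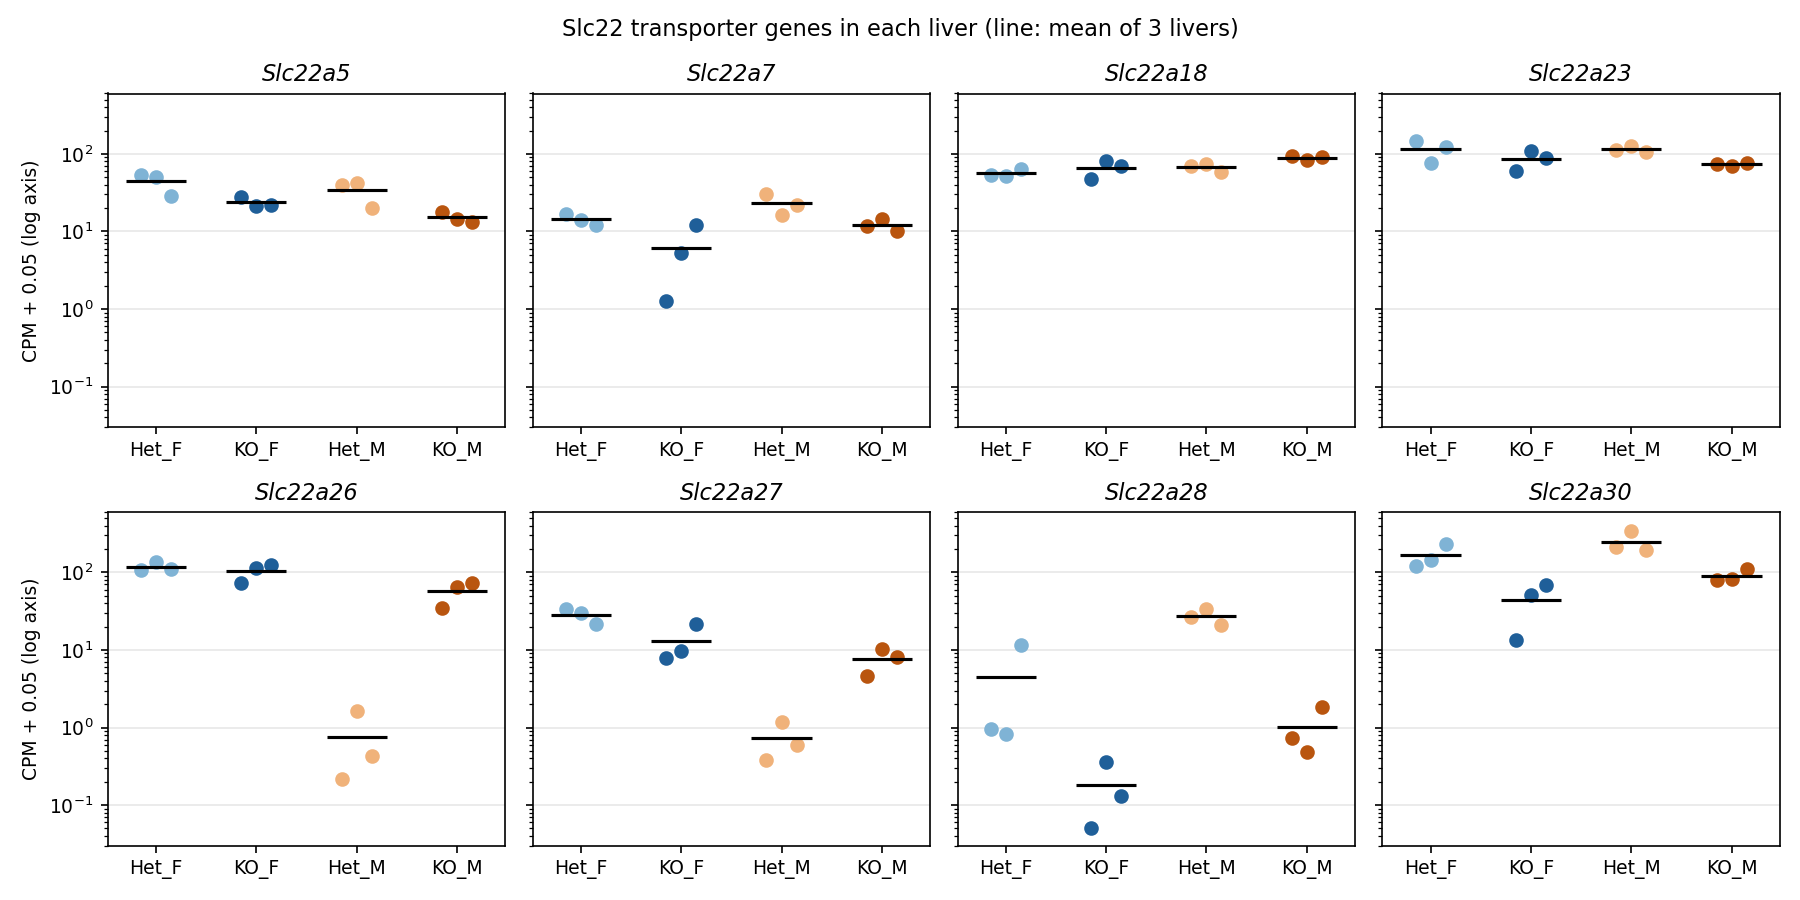
CPM of each gene in each of the 12 livers, with 0.05 added so that 0 can be shown on the log axis. Points are single livers, horizontal lines are means of 3 livers, and blue groups are females and orange groups males. Slc22a26 and Slc22a27 are near the bottom of the axis in Het males and in no other group, whereas Slc22a28 is highest in Het males.

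Slc22a5 encodes OCTN2, the sodium-dependent carrier that brings carnitine into cells (11:53753315 to 53782703, minus strand, 10 exons). Its levels were 53.8, 50 and 28.9 CPM in Het females and 27.9, 21.5 and 22.0 CPM in KO females. In males they were 40.1, 42.5 and 19.8 CPM in Het and 17.8, 14.3 and 13.2 CPM in KO. By CPM all KO livers of a sex were below all Het livers of that sex. In females this did not hold by TPM, where KO_F_108 (7.86) was above Het_F_126 (7.73). The log2 fold change was -1.03 (SE 0.205, adjusted p = 0.00527) across both sexes, a 2.05-fold lower level. It was -1.17 (SE 0.291, adjusted p = 0.0327) in males and -0.89 (SE 0.288, adjusted p = 0.0673) in females, and the difference between the sexes was not called (-0.28, SE 0.404, adjusted p = 0.851). The call in males was lost in 5 of the 12 fits that left out a mouse, with adjusted p up to 0.123. It was also lost with the male livers alone (adjusted p = 0.0507) and by limma on log2(TPM + 1) (0.0878) and log2(TPM + 0.1) (0.0676). Slc22a21, which shares part of its sequence with Slc22a5, was at 0.72 ± 0.259 CPM (SD, n = 6) in Het and 1.61 ± 0.445 CPM (n = 6) in KO livers, and so moved the other way at a far lower level (log2 fold change 1.09, adjusted p = 0.0114).

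Slc22a7 encodes OAT2, an organic anion transporter of the hepatocyte (17:46743044 to 46749407, minus strand, 10 exons). The Het females had 16.7, 13.9 and 12.1 CPM and the KO females 1.21, 5.26 and 12.0 CPM. The Het males had 30.4, 16.4 and 22.2 CPM and the KO males 11.6, 14.3 and 10.1 CPM. Within each sex the KO livers were all below the Het livers by CPM, and KO_F_108 was the lowest of the 12. In females KO_F_123 was level with Het_F_126 (12.0 against 12.1 CPM), and by TPM it was not below it (5.04 against 5.02). The log2 fold change across both sexes was -1.07 (SE 0.403, adjusted p = 0.0835), so the gene was not called. With KO_F_123 left out it was -1.54 (adjusted p = 0.0088) and with KO_F_108 left out -0.84 (adjusted p = 0.0296). The gene was also called by DESeq2 (-1.08, adjusted p = 0.0213). In females the value changed from -1.20 (adjusted p = 0.196) to -2.13 (adjusted p = 0.0222) without KO_F_123.

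Slc22a18 and Slc22a23 have no settled substrate. Slc22a18 lies in an imprinted domain of chromosome 7 (143027466 to 143053072, plus strand, 11 exons). It was measured at 56.4 ± 6.19 CPM (SD, n = 3) in Het females and 66.0 ± 17.6 in KO females, and at 66.9 ± 8.13 in Het males and 88.8 ± 5.05 in KO males. In males the 3 KO livers were all above the 3 Het livers (93.1, 83.2 and 90.0 against 68.9, 73.8 and 57.9 CPM), yet the gene was not called in males (log2 fold change 0.41, SE 0.181, adjusted p = 0.191) or across both sexes (0.32, SE 0.128, adjusted p = 0.0944). Without KO_F_108, which at 47.0 CPM was the lowest of the 12 livers, the value across both sexes was 0.40 (adjusted p = 0.0142). Among its imprinted neighbours, 2 of the 12 tested were called across both sexes, beside 22.4% of all genes, and both were higher: Phlda2 (log2 fold change 1.85, adjusted p = 0.00429) and Cdkn1c, a cell cycle inhibitor (0.87, adjusted p = 0.0193). Phlda2 was barely detected, at 0.03 ± 0.0332 CPM in Het and 0.278 ± 0.185 CPM in KO livers (SD, n = 6). The median over the 12 was -0.10.

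Slc22a23 (13:34363141 to 34529657, minus strand, 11 exons) was at 144.7, 76.7 and 123.5 CPM in Het females and 59.9, 109.7 and 88.4 CPM in KO females, which overlap. In males the Het livers had 111.4, 125.5 and 105.2 CPM and the KO livers 74.5, 69.9 and 75.9 CPM, which do not overlap. Across both sexes the log2 fold change was -0.53 (SE 0.166, adjusted p = 0.04). This call lay close to the threshold and was lost in 10 of the 12 fits that left out a mouse, all but those without Het_F_115 or KO_F_112, and its values in the 12 fits ranged from -0.65 to -0.44.

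Slc22a26 encodes a transporter of the chromosome 19 group (7758406 to 7780055, minus strand, 10 exons). In females it was at 108.2, 135.6 and 109.4 CPM in Het livers and 72.2, 114.3 and 122.6 CPM in KO livers. In Het males it was nearly absent, at 0.167, 1.59 and 0.384 CPM, which correspond to 5, 49 and 12 counts. In KO males it was at 34.4, 63.9 and 72.0 CPM. The KO males were thus all far above the Het males and below the lowest KO female, whereas the female groups overlapped. The log2 fold change was 6.20 (SE 0.636, adjusted p = 0.000699) in males and -0.19 (SE 0.489, adjusted p = 0.832) in females. The difference between the sexes was 6.39 (SE 0.779, adjusted p = 0.0297), and Slc22a26 was the only one of the 8 genes called in that comparison, in which 0.0465% of all genes were called (0.0362% higher and 0.0103% lower). Without Het_M_125, the Het male with the highest level, the change in males was 7.41 (adjusted p = 5.04e-05). The call of the difference was lost in 7 of the 12 fits that left out a mouse, where adjusted p reached 0.122, while the difference itself stayed between 5.96 and 7.62 in all 12.

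Slc22a27 (7841301 to 7943962, minus strand, 11 exons) followed a similar order of groups at lower levels. Het females had 33.5, 29.9 and 21.5 CPM and KO females 7.75, 9.72 and 21.6 CPM. Het males had 0.334, 1.14 and 0.544 CPM and KO males 4.55, 10.2 and 8.15 CPM. The KO males were all above the Het males. In females only KO_F_123 reached the lowest Het liver by CPM, and by TPM it did not (8.20 against 8.37). The log2 fold change was 3.39 (SE 0.511, adjusted p = 0.00393) in males and -1.12 (SE 0.438, adjusted p = 0.12) in females, and the difference between the sexes was 4.51 (SE 0.669, adjusted p = 0.0511). Leaving out KO_F_123 raised that difference to 5.09 (adjusted p = 0.00817) and gave a value of -1.70 in females (adjusted p = 0.0249). Across both sexes the change averaged opposite directions and was 1.14 (SE 0.323, adjusted p = 0.0281), a call that was lost in 6 of the 12 fits without a mouse and was 0.22 (adjusted p = 0.536) by limma on log2(TPM + 1). The close paralog Slc22a29 had the same signs without a call, at -0.91 in females (adjusted p = 0.14) and 0.95 in males (adjusted p = 0.196).

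Slc22a28 (8039327 to 8109346, minus strand, 10 exons) was highest in Het males, at 26.6, 33.7 and 20.7 CPM. The KO males were at 0.679, 0.437 and 1.77 CPM and the KO females at 0, 0.31 and 0.0804 CPM, which are 0, 10 and 3 counts. Among Het females, Het_F_126 had 11.5 CPM and the other livers 0.902 and 0.765 CPM. Every KO liver was below every Het liver of its sex. The log2 fold change was -4.67 (SE 0.801, adjusted p = 0.00365) across both sexes, -4.74 (SE 1.07, adjusted p = 0.0279) in males and -4.60 (SE 1.20, adjusted p = 0.0389) in females. Het_F_126 decided the size in females, where the value without it was -2.28 (adjusted p = 0.0784), and across both sexes it was -3.51 (adjusted p = 0.00119) without it. Without KO_F_112 the female value was -5.51 (adjusted p = 0.0608), and without KO_M_136 the male value was -5.45 (adjusted p = 0.0592). In all, the female call was lost in 7 of the 12 fits that left out a mouse (adjusted p up to 0.136) and the male call in 6 of 12 (up to 0.103). Without the filter on low counts both calls were lost (adjusted p = 0.0895 and 0.0703), and the female call was also lost with the female livers alone (0.114) and by limma on log2(TPM + 1) (0.165) and log2(TPM + 0.1) (0.0524). With counts this low in KO livers, the fitted values depend on the prior count.

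Slc22a30 (8312731 to 8382475, minus strand, 10 exons) was the most abundant of the 8 genes per length in Het livers. Het females had 120.8, 144.4 and 234.6 CPM and KO females 13.4, 51.4 and 68.2 CPM. Het males had 209.6, 342.4 and 195.3 CPM and KO males 79, 81.2 and 110.4 CPM. All 6 KO livers were below all 6 Het livers, which held for no other of the 8 genes and for 9.35% of all genes in either direction (4.72% all higher and 4.64% all lower). The log2 fold change was -1.69 (SE 0.351, adjusted p = 0.00793) across both sexes and -1.91 (SE 0.50, adjusted p = 0.0379) in females. In males it was -1.47 (SE 0.493, adjusted p = 0.104), and the difference between the sexes was 0.44 (SE 0.683, adjusted p = 0.863). The female call was lost in 6 of the 12 fits without a mouse, without the filter on low counts (adjusted p = 0.0887) and with the female livers alone (0.116). In males the gene was called by DESeq2 (adjusted p = 0.0173), with the male livers alone (0.0127) and without KO_F_108 (0.0123).

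Because Slc22a28 and Slc22a30 share much of their sequence, their split was also read as a share of the pair. Slc22a28 took 11.3%, 8.96% and 9.57% of the pair's estimated counts in Het males. It took 0.741%, 0.527% and 4.66% in Het females, 0.0%, 0.598% and 0.118% in KO females and 0.852%, 0.536% and 1.58% in KO males. Slc22a30 carried most of the pair in every liver.

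**Figure D2:**
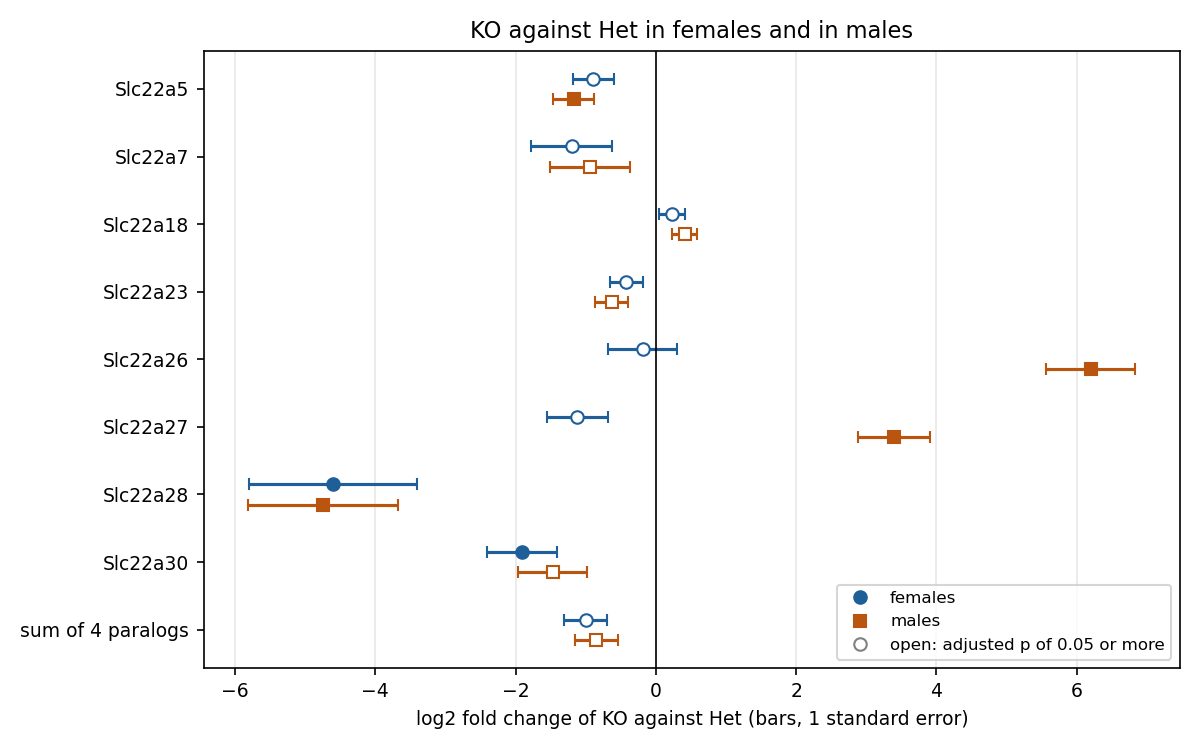
KO to Het difference on the log2 scale in females (circles) and males (squares) for the 8 genes and for the summed counts of the 4 chromosome 19 genes, with bars of 1 standard error and open symbols where the adjusted p was 0.05 or more. Slc22a26 and Slc22a27 lie right of 0 in males and left of 0 in females, and the other genes lie on the same side in both sexes.

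Within each sex the groups often separated by CPM without a call. In females 4 of the 8 genes had all KO livers below all Het livers and 4 overlapped, beside 30.4% of all genes whose groups did not overlap in either direction (15.8% higher and 14.7% lower). In males 3 of the 8 had all KO livers above the Het livers (Slc22a18, Slc22a26 and Slc22a27) and the other 5 had them all below, beside 32.1% of all genes (16.8% higher and 15.4% lower). The set in females depended on the measure. By TPM the female groups overlapped for Slc22a5 (highest KO 7.86, lowest Het 7.73) and Slc22a7 (5.04 and 5.02). For Slc22a27 they did not overlap by TPM (8.20 and 8.37).

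The difference between males and females was then read within each genotype. In Het livers 2 of the 8 genes were called, beside 0.92% of all genes (0.46% higher and 0.46% lower), and both were lower in males. They were Slc22a26 (log2 difference of males against females -7.25, SE 0.663, adjusted p = 0.000576) and Slc22a27 (-5.28, SE 0.541, adjusted p = 0.000929). Without Het_M_125 these values were -8.49 and -5.86. Slc22a29 was lower in Het males as well (-2.49, adjusted p = 0.0149). Slc22a28 was higher in every Het male than in every Het female but was not called (2.59, SE 0.948, adjusted p = 0.326), and without Het_F_126 it was 4.91 higher (adjusted p = 0.00769). Between Het males and Het females the groups did not overlap for 3 of the 8 genes, beside 17.2% of all genes (8.03% higher and 9.16% lower in males).

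In KO livers 0 of the 8 genes were called between the sexes by edgeR, by DESeq2 or by limma, beside 0.0517% of all genes by edgeR (0.0413% higher and 0.0103% lower in males), and 2 of the 8 had an unadjusted p under 0.05. The values were -0.86 (SE 0.493, adjusted p = 0.49) for Slc22a26, -0.77 (SE 0.439, adjusted p = 0.485) for Slc22a27 and 2.46 (SE 1.22, adjusted p = 0.438) for Slc22a28. The KO males were still all below the KO females for Slc22a5 and Slc22a26 and all above them for Slc22a18, Slc22a28 and Slc22a30, beside 17.6% of all genes (9.11% higher and 8.53% lower in males). Averaged over both genotypes, Slc22a26 (-4.06, adjusted p = 0.00125) and Slc22a27 (-3.03, adjusted p = 0.00208) were called, beside 1.02% of all genes (0.512% higher and 0.506% lower), both lower in males.

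Levels were compared between genes only per length, as TPM (the deposited abundance, scaled to 1000000 transcripts). In Het females the order of mean TPM was Slc22a30 (58.3 ± 19.8, SD, n = 3), Slc22a26 (41.0 ± 5.42), Slc22a18 (32.0 ± 3.27), Slc22a23 (20.8 ± 5.47), Slc22a5 (12.0 ± 3.74), Slc22a27 (11.2 ± 2.53), Slc22a7 (6.04 ± 0.998) and Slc22a28 (1.80 ± 2.52). The ranges over livers overlapped for Slc22a30 with Slc22a26, Slc22a23 with Slc22a5 and Slc22a5 with Slc22a27, and for no other neighbours in that order. In Het males Slc22a30 (74.9 ± 22.5 TPM) was followed by Slc22a18 (32.8 ± 2.51), Slc22a23 (18.3 ± 1.98), Slc22a28 (9.66 ± 2.05), Slc22a7 (8.41 ± 2.47) and Slc22a5 (7.83 ± 2.66), of which the last 3 overlapped, with Slc22a27 (0.231 ± 0.145) and Slc22a26 (0.22 ± 0.221) at the end.

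In KO livers of either sex Slc22a18 came first. In KO females it had 35.3 ± 6.36 TPM (SD, n = 3) and overlapped with Slc22a26 (33.6 ± 6.84), and these were followed by Slc22a23 (14.5 ± 2.78), Slc22a30 (14.3 ± 9.08), Slc22a5 (6.25 ± 1.43), Slc22a27 (4.86 ± 2.90) and Slc22a7 (2.49 ± 2.31), each of which overlapped with the next, and by Slc22a28 (0.0493 ± 0.059). In KO males Slc22a18 had 47.0 ± 3.71 TPM and stood above Slc22a30 (28.7 ± 5.86) and Slc22a26 (18.1 ± 6.40) without overlap between these 3. Slc22a23 followed (12.8 ± 0.534) and overlapped with Slc22a26. Slc22a7 (4.66 ± 0.657), Slc22a5 (3.68 ± 0.597) and Slc22a27 (2.73 ± 0.981) overlapped each with the next, and Slc22a28 (0.371 ± 0.281) was last.

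The 4 chromosome 19 genes were also taken as a sum, which does not depend on how shared reads were split among them. The summed level was 317 ± 57.2 CPM (SD, n = 3) in females of the Het group and 160 ± 60.9 CPM in KO females. In males it was 278 ± 88.3 CPM (Het) and 156 ± 36.5 CPM (KO). Its log2 fold change between KO and Het was -0.92 (SE 0.216, adjusted p = 0.0115) across both sexes, and it was not called in females (-1.0, SE 0.306, adjusted p = 0.0558) or in males (-0.85, SE 0.305, adjusted p = 0.119). The difference between these values was 0.15 (SE 0.429, adjusted p = 0.934). Of the genes within the sum, Slc22a26 and Slc22a27 were called higher and Slc22a28 lower in males. Slc22a30, the largest part of the sum in Het males, was lower in KO males without a call (mean 249.1 CPM in Het and 90.2 CPM in KO).

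The makeup of that sum by TPM differed between the groups. Slc22a30 made up 45.6% to 61.1% of it in Het females and 14.1% to 32.2% in KO females, and 86.8% to 88.8% in Het males and 51.2% to 66.5% in KO males. Slc22a26 made up 29.0% to 42.5% in Het females and 56.3% to 76.9% in KO females, and 0.0727% to 0.414% in Het males and 28.5% to 41.2% in KO males. The shares of Slc22a26 in KO males thus lay within the range of Het females or just below it. Slc22a28 reached 10.5% to 13.0% in Het males and at most 3.57% in any other liver. Slc22a27 was between 0.156% and 0.344% in Het males and between 4.32% and 14.1% in the other groups.

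**Figure D3:**
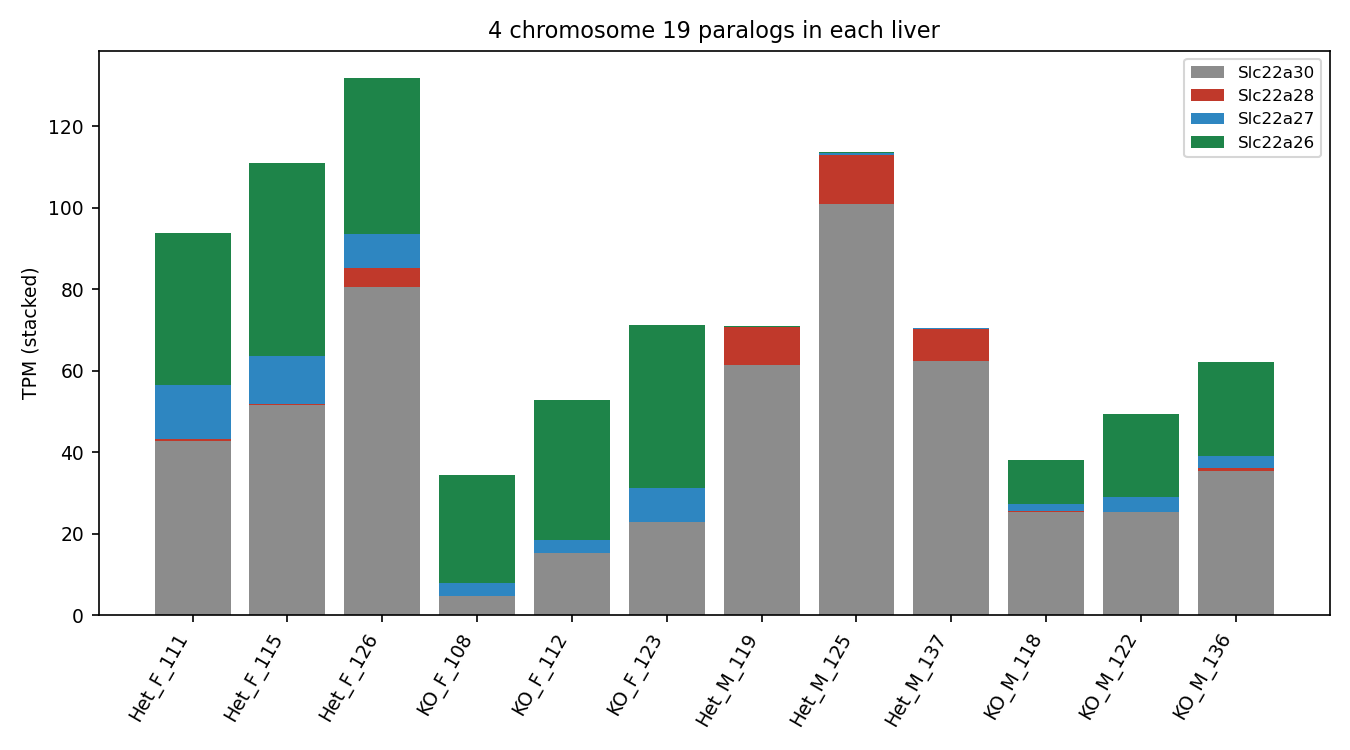
TPM of Slc22a30, Slc22a28, Slc22a27 and Slc22a26 stacked for each of the 12 livers, so that the bar height is their sum. Slc22a26 is a visible part of the bar in all females and in KO males and not in Het males, and Slc22a28 is visible in Het males and in Het_F_126.

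**Figure D4:**
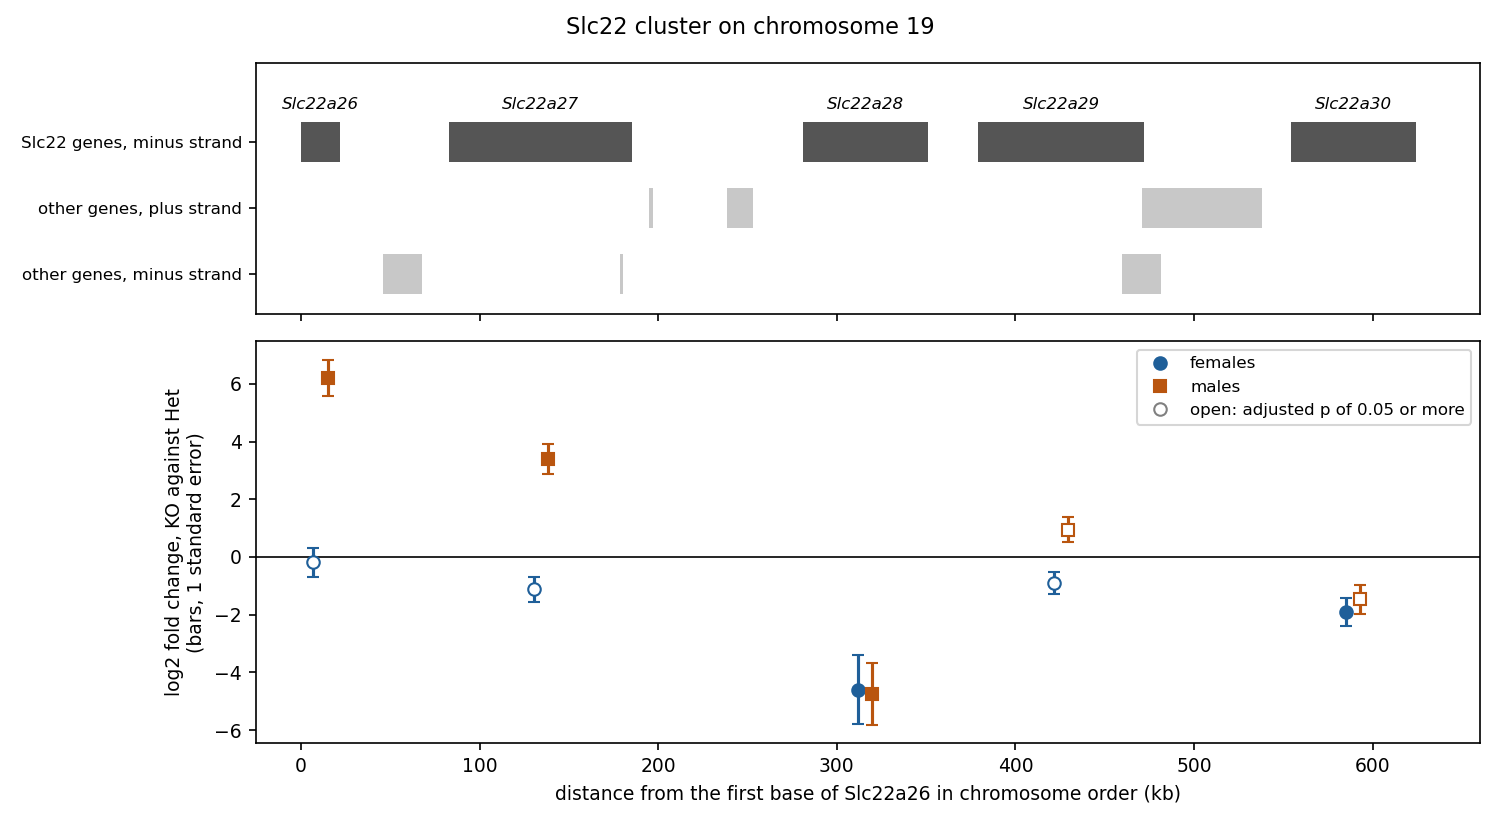
Genes of the chromosome 19 stretch by distance in kb (upper panel, dark bars for Slc22 genes and pale bars for other annotated genes) and the KO to Het difference on the log2 scale of each Slc22 gene in females (circles) and males (squares), with bars of 1 standard error and open symbols where the adjusted p was 0.05 or more. In males the values run from 6.20 for Slc22a26 to -4.74 for Slc22a28 and 0.95 for Slc22a29, so neighbours on the same strand differ in sign.

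Other Slc22a genes that passed the filter were read in the same way. Slc22a17 was lower across both sexes, at 0.783 ± 0.28 CPM in Het and 0.393 ± 0.163 CPM in KO livers (SD, n = 6, log2 fold change -0.92, adjusted p = 0.0372) and Slc22a21 was higher. Slc22a3, which encodes the cation transporter OCT3, was called in females, where it rose from 3.67 ± 1.51 to 13.1 ± 6.79 CPM (SD, n = 3, log2 fold change 1.83, adjusted p = 0.0337). In males its value was -0.34 (adjusted p = 0.716), and the difference between the sexes was not called (-2.16, adjusted p = 0.421). Slc22a4 (0.01, adjusted p = 0.974), Slc22a15 (0.27, adjusted p = 0.0688), Slc22a13b (-0.07, adjusted p = 0.927) and Slc22a29 (0.02, adjusted p = 0.932) were not called across both sexes.

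The genes whose levels ran most like each variable member were found by the root mean square difference of log2 CPM over the 12 livers after centring, among genes with a mean of at least 1 CPM. They are a description with no test. For Slc22a26 they were Cyp2c69 (difference 1.01) and Cyp2b9 (1.22). For Slc22a27 they were Cyp2a22 (0.551) and Cyp2c40 (0.777). All 4 are cytochrome P450 genes. All 4 were lower in Het males than in Het females, which follows from their choice by likeness to Slc22a26 and Slc22a27. Cyp2b9 was between 184.5 and 498.8 CPM in Het females and between 1.46 and 4.67 in Het males. It was between 63.2 and 191.5 CPM in KO females and between 61.1 and 110.4 in KO males. For Slc22a28 they were Nudt7, a peroxisomal coenzyme A hydrolase (1.36), and the major urinary protein gene Mup11 (1.36). Nudt7 had 565.8 ± 43.7 CPM (SD, n = 3) in Het males, 122.9 ± 52.9 in Het females, 37.0 ± 1.20 in KO males and 22.4 ± 13.2 in KO females. For Slc22a30 they were Nat8f1 (0.232) and Hao1, a peroxisomal hydroxyacid oxidase (0.303). For Slc22a7 they were Cyp1a2, a drug-metabolising cytochrome P450 (0.371), and Ugt1a2 (0.377). Slc22a5, Slc22a18 and Slc22a23 varied too little (SD under 1 on the log2 scale) for this search.

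The lists of related genes were read with the same fit, without the 8 genes. Of 21 genes known as female-predominant in liver, 13 were called across both sexes, beside 22.4% of all genes, and all 13 were higher in KO, among them Cyp2a4 (log2 fold change 5.47) and Cyp39a1 (1.86). In females 2 of the list were called higher and 2 lower, beside 5.94% and 5.1% of all genes, and the median was 0.75. In males 15 were called higher and 0 lower, beside 4.47% and 2.98% of all genes, and the median was 5.65. Of 21 male-predominant genes, 12 were called lower and 1 higher across both sexes, with Mup3 (-5.81), Nudt7 (-3.19) and Cyp2u1 (-2.86) lower. In females 6 were called lower and 2 higher, with a median of -0.39. In males 13 were called lower and 0 higher, with a median of -3.03. Between Het males and Het females 13 of the 21 female-predominant genes were called lower and 13 of the 21 male-predominant genes higher. The share of all genes called in that comparison was 0.46% in each direction. Between KO males and KO females 0 genes of either list were called by edgeR, beside 0.0517% of all genes, while 13 and 10 had an unadjusted p under 0.05. The median log2 difference of males against females in KO was -1.34 for the female-predominant list and 1.38 for the male-predominant list. In Het these medians were -7.22 and 2.95.

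Of 13 tested genes of carnitine supply and the carnitine shuttle, 5 were called lower across both sexes and 1 higher, with a median of -0.41. For this and the lists that follow, the share of all genes called across both sexes was 10.2% lower and 12.2% higher, and the median over all genes was 0.02. In females 4 of the 13 carnitine genes were called, all lower (median -0.68), beside 5.1% of all genes called lower. In males 0 of the 13 were called (median -0.13), beside 7.45% of all genes. Bbox1, which makes the last step of carnitine synthesis, was lower (-0.63, adjusted p = 0.00641), as was the mitochondrial transferase Cpt2 (-0.92, adjusted p = 0.0101), and the gene called higher was Slc22a21. Of 23 tested transporters of drugs and organic ions from other families, 7 were lower and 5 higher, with a median of -0.11. The uptake transporter Slco1b2 fell from 1070 ± 120 to 507 ± 103 CPM (SD, n = 6, log2 fold change -1.08, adjusted p = 0.000385), and the efflux transporter gene Abcc4 (1.40, adjusted p = 0.000315) and the low Slc51b (2.46, adjusted p = 0.00033) rose. Of 21 regulators of sex-biased and transporter genes, 7 were lower and 4 higher, with a median of -0.24. Cebpa (-1.10, adjusted p = 0.000586) and the bile acid receptor gene Nr1h4 (-1.03, adjusted p = 0.00127) were lower. Cux2, which is also on the female-predominant list, was higher (3.50, adjusted p = 0.000283).

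Some markers of liver cell types were called between the genotypes, beside 22.4% of all genes. Of 8 stellate cell genes 3 were called lower across both sexes (Reln, Lrat and Colec10), and the summed level of the list was 377 to 475 CPM in Het females, 250 to 360 CPM in males of the Het group, 139 to 172 CPM in KO females and 130 to 267 CPM in the KO males. Of 7 sinusoidal endothelium genes 4 were lower, among them Fcgr2b, Kdr and Clec4g, and their sums were 322 to 418, 220 to 304, 185 to 266 and 172 to 281 CPM in the same order. Of 8 Kupffer cell and macrophage genes 3 were higher (Vsig4, Cd68 and Cd5l), with sums of 289 to 341, 134 to 187, 275 to 535 and 175 to 486 CPM, which overlap between the genotypes in each sex. Of 9 hepatocyte genes 2 were lower (Ttr and Cyp2e1) and 1 was higher (Fgb), with sums of 87400 to 97700, 75900 to 96200, 97100 to 154000 and 95700 to 120000 CPM. The part of these differences in the results for the Slc22 genes was not tested.

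The remaining lists were small or low. Of 7 cholangiocyte genes only Cldn4 was called, higher, and it was barely detected (0.092 ± 0.0495 CPM in Het and 0.398 ± 0.222 CPM in KO livers, SD, n = 6). The sums of the list were 30.3 to 52.8 CPM in Het females and 16.5 to 52.7 CPM in KO females. In males they were 31.3 to 61.5 CPM (Het) and 32.8 to 46.7 CPM (KO). For this and the counts that follow, the share of all genes called across both sexes was 22.4%. Of 3 tested neutrophil genes S100a8 was higher, and the list was between 0.39 and 3.22 CPM in sum in every liver. Of 5 tested erythroid genes Tfrc was higher and Alas2 lower. Lymphocyte genes had 0 calls of 7 across both sexes by edgeR, DESeq2 or limma, and 0 had an unadjusted p under 0.05 by any of these tools. The 1 kidney proximal tubule gene that passed the filter, Lrp2, was lower (-1.43, adjusted p = 0.0234), from 1.29 ± 0.891 to 0.381 ± 0.26 CPM (SD, n = 6).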

How the data were processed

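Total RNA of 12 livers was depleted of ribosomal RNA and sequenced with a stranded kit. The authors aligned reads with STAR 2.7.9a to GRCm39 with GENCODE M34 in the nf-core pipeline, and the deposited estimated counts per gene came from Salmon 1.10.1. The deposited TPM values, also made by the authors, keep no depth and were used for levels between genes. The estimated counts were rounded, since 12% are not whole, scaled by TMM and tested with edgeR 4.0.16 in R 4.3.3 (quasi-likelihood F test, robust, prior count 2, a mean for each of 4 groups). Standard errors, in the text and in the figures, come from the F statistic and are approximate. For Slc22a28 that of the difference between the sexes (0.872) was below those in males (1.07) and in females (1.20). The threshold was an adjusted p of 0.05 over 19350 genes. CPM uses TMM-scaled library sizes.

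Groups come from the labels and each sample is a separate mouse. Within groups no pair of livers was alike to sampling noise (chi-square per degree of freedom at least 56.6). There were 0 columns of other samples. The 8 genes, the lists and the alternatives were chosen with earlier results of these data known. The 8 genes, other Slc22a genes past the filter, up to 3 called genes of smallest p per list, the 2 genes most alike to each variable member, and Xpa are named, except that some genes that meet these rules are not reported here. Alternatives were other scalings, length-scaled counts, no filter, no robust estimation, DESeq2 1.42.0, limma 3.58.1 on log2(TPM + 1) and log2(TPM + 0.1), single-sex fits and leaving out each mouse. The older quasi-likelihood method and a sum that includes Slc22a29 were added after seeing the data. Coding identity (Biopython 1.88), shared stretches and start regions were read from the GRCm39 genome with GENCODE M39, a later release than the authors used. Coding sequences stood in for proteins, which were not used here. The fits were tested on simulated data.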

Additional observations from a re-analysis of the deposited data

Results flagged for a closer look

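The KO effect on Slc22a26 differed between the sexes by a test of the difference itself, with a log2 value of 6.39 for the effect in males minus that in females (SE 0.779, adjusted p = 0.0297). All 3 KO males were above all 3 Het males, and the female groups overlapped. The adjusted p over the alternatives that left out 1 mouse each reached 0.122. With 3 livers in a group, single livers were not tested as outliers. KO_F_108 was the lowest KO female by CPM for Slc22a7, Slc22a18, Slc22a23, Slc22a26, Slc22a27, Slc22a28 and Slc22a30, and the highest for Slc22a5.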

How the results depend on the processing

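No value for a single gene or for the sum changed sign under any alternative run. Across both sexes the calls of Slc22a5, Slc22a26, Slc22a28, Slc22a30 and the sum of the 4 paralogs were kept in every alternative, with the count of called genes between 4 and 7 when a mouse was left out. In females the count of 2 became 0 without the filter on low counts, 0 with the 6 female livers alone and 1 by limma on log2(TPM + 0.1), and ranged from 0 to 3 when a mouse was left out. In males the count of 4 became 6 with the 6 male livers alone, 5 by DESeq2 and 3 without the filter and by either limma fit, and ranged from 2 to 5 when a mouse was left out. For the difference of the KO effect between the sexes, the count of 1 became 0 without the filter and 2 under relative log expression scaling, upper quartile scaling, no robust estimation, DESeq2, limma on log2(TPM + 1) and limma on log2(TPM + 0.1), and ranged from 0 to 2 when a mouse was left out. Slc22a27 was the second gene. The cause of these changes was not tested. Counts between males and females stayed between 2 and 3 in Het livers and at 0 in KO livers. The summed paralogs ranged from -1.05 to -0.77 when a mouse was left out. The offset of limma on log2(TPM + 1) reduced the changes of low genes by construction, to -2.01 for Slc22a28 and 1.82 for Slc22a26 across both sexes. Groups of 3 and counts under 20 in some KO livers limit the precision for Slc22a28. No paired analysis was possible because the labels give no litter. Each mouse has its own number, shared with no mouse of another group.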
